A study of Homo sapiens with 18 samples.

Results

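The peaks described here are the 88 RNA regions called for the 7A mutant of MYC, set against the 2149 regions called for wild-type MYC. They were taken whole from the deposited doxycycline peak lists, and together with the 103 peaks of the 3A mutant they make up the 2340 peaks of the series. Each peak of the 7A and wild-type lists was classed by whether a peak of the other list shared at least 1 bp with it on the same chromosome and strand. All cells were U2OS, a human osteosarcoma line, with the endogenous MYC gene knocked out and a FLAG-tagged MYC under a Tet-On switch. The MYC-WT and MYC-7A groups used here each comprised 2 immunoprecipitated libraries made with a FLAG antibody after 24 h in 1 µg/mL doxycycline. Which residues 7A changes, and whether the lines are single clones, is not given in the labels. Each allele has 1 peak list, so no value below has a replicate spread and no test between alleles was made. Percentages carry 95% Wilson intervals where given, which cover counting error over peaks only. Beside a count of 0, the share it allows is 3 peaks of the total, which is not a Wilson limit. The depth behind the lists is unknown.

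MYC is a transcription factor that dimerises with MAX through a helix-loop-helix leucine zipper and binds E-box sequences in DNA near gene starts. Its known target genes encode ribosomal proteins, nucleolar factors, glycolytic enzymes and translation factors. In eCLIP, ultraviolet light joins a protein to RNA it touches, and the RNA that comes down with the protein is trimmed by RNase and sequenced. A peak marks a stretch of RNA with more reads than a control or background. The fold enrichment and the −log10 q of each peak are the authors' values and serve here only to rank peaks inside their own list.

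The sequences of gene starts are shown first, because a larger share of wild-type than of 7A peaks lay there. A promoter window covers 250 bases before and 50 after a RefSeq gene start in GRCh38.p14, the assembly of hg38. Of 35116 such windows, 395 were met on their own strand by a wild-type peak and 3 by a 7A peak. The peaks that met a window were 371 of the wild-type list (17.3%) and 3 of the 7A list (3.41%). The 3 windows are those of the glycolytic gene PGK1 (phosphoglycerate kinase), of COXFA4, which encodes a protein associated with cytochrome c oxidase, and of the peroxiredoxin gene PRDX5. All 3 were met by a wild-type peak too. At PGK1 all 280 bases from chrX:78103998-78104277 on the plus strand, 250 before the start and 30 after it, lay under both peaks. The capitals mark 3 matches to the GC box GGGCGG on either strand.
PGK1: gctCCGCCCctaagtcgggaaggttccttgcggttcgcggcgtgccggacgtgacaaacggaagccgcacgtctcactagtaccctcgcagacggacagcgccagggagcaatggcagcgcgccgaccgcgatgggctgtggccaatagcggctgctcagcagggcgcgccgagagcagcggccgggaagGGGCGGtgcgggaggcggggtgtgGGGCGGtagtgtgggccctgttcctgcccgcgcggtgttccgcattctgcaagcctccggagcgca

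The next sequences run from 30 bases before the start to 30 after it, and capitals mark the bases under the wild-type peak. PRDX5 is shown as a start that both lists held, and 42 of its 60 bases also lay under the 7A peak. The other 6 are the protein-coding starts without a 7A peak whose wild-type peak had the highest fold enrichment, among peaks with at least 10 of these bases and a summit in the same gene. NME1 encodes a nucleoside diphosphate kinase, PROCR the endothelial protein C receptor, SLIRP a mitochondrial RNA-binding protein, DYNLL1 a dynein light chain, NDUFB8 a subunit of respiratory complex I and COA6 an assembly factor of cytochrome c oxidase. Their wild-type fold enrichments run from 37.1 for NME1 to 24.8 for COA6.
PRDX5, chr11:64318256-64318315, plus strand: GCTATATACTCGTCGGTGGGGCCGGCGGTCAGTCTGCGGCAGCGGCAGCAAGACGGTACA
NME1, chr17:51153529-51153588, plus strand: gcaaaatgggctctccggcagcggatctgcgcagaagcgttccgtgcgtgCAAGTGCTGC
PROCR, chr20:35172042-35172101, plus strand: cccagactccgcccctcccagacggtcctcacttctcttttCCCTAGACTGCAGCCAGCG
SLIRP, chr14:77708073-77708132, plus strand: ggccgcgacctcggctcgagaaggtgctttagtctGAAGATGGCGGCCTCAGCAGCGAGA
DYNLL1, chr12:120496083-120496142, plus strand: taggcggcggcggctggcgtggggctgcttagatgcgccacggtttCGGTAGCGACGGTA
NDUFB8, chr10:100529842-100529901, minus strand: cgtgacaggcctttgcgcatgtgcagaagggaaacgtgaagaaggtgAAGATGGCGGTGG
COA6, chr1:234373653-234373712, plus strand: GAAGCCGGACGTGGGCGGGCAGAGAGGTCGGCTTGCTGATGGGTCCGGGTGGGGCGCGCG
In NME1, PROCR, SLIRP, DYNLL1 and NDUFB8 the wild-type peak began inside the first 30 transcribed bases. In COA6, PRDX5 and PGK1 it also covered every base shown before the start.

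The 7A and wild-type lists met in 30 places. These were 30 of the 88 7A peaks (34.1%, interval 25.0 to 44.5) and 30 of the 2149 wild-type peaks (1.4%, interval 0.980 to 1.99). Each 7A peak of a pair met 1 wild-type peak and the reverse. The split was clear: the smallest overlap of a pair was 100 bp, and the 7A peak nearest to a wild-type peak without touching it lay 67 bp away. The overlap was smaller in parts of the lists: it held 7 of 44 7A peaks (15.9%) when each list was cut at its own median fold enrichment, and 10 of 88 (11.4%) when the wild-type list was cut to its 88 most significant peaks, taken by −log10 q.

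Within the pairs the positions were close. The 7A peak lay wholly inside the wild-type peak in 23 of 30 pairs, and it was the wider of the pair in 5. The median distance between summits was 6 bp (range 0 to 219), and in 19 pairs it was at most 20 bp. Starts differed by a median of 24.5 bp. In 21 of the 30 pairs a peak of the 3A mutant lay there as well.

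The first 100 wild-type peaks were met more often than the whole list (1.4%), by either ranking. Ranks are out of 2149 in the wild-type list and out of 88 in the 7A list, so the same rank is not the same place in both. By −log10 q, 7A peaks met 6 of the first 10 wild-type peaks, 10 of the first 50, 10 of the first 100 and 20 of the first 500. By fold enrichment they met 3 of the first 10, 5 of the first 50, 8 of the first 100 and 10 of the first 500. Those 3 were the 2 MYC peaks and the PGK1 peak, at ranks 1, 2 and 3. From the first 100 to the first 500 the count by fold enrichment rose only from 8 to 10. The wild-type peak of a pair had a median rank of 273 by −log10 q and of 793 by fold enrichment. The median rank of all wild-type peaks was 1074 by −log10 q and 1073 by fold enrichment. The 10 met among the first 100 by −log10 q were all in the first 50.

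**Figure D1:**
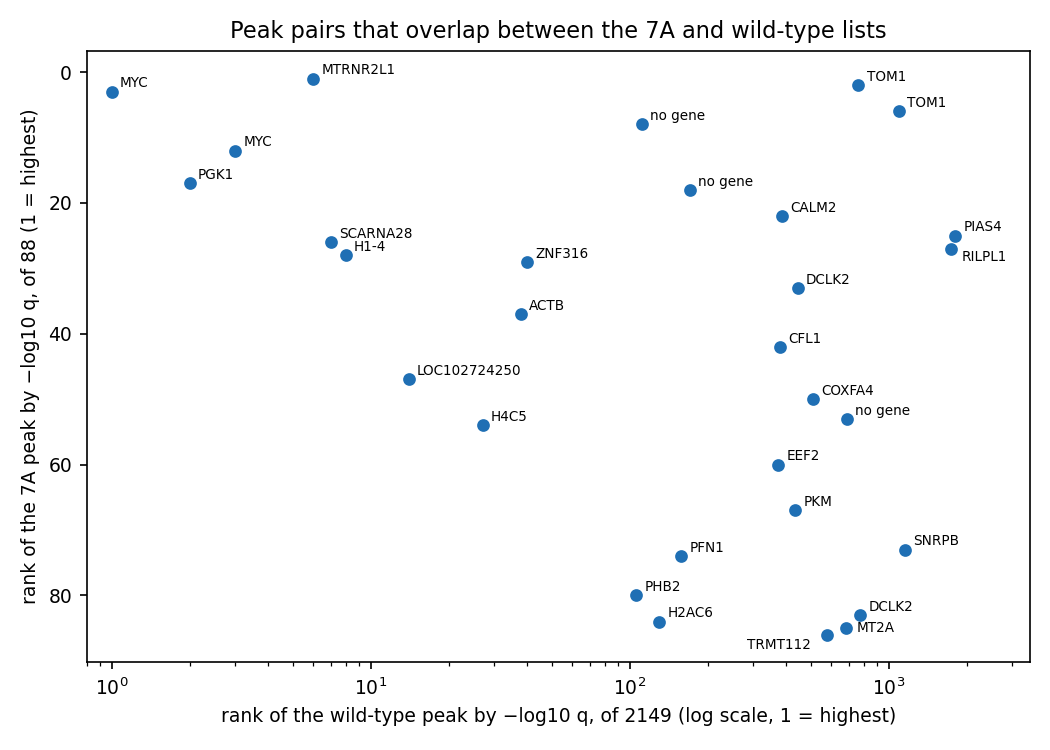
Rank of each of the 30 overlapping peaks in the wild-type list (horizontal, log scale) and in the 7A list (vertical), both by −log10 q with 1 as the highest, labelled by the host gene of the 7A summit. The MYC and MTRNR2L1 peaks rank 12 or higher in both lists, and the TOM1 peaks rank 2 and 6 of 88 in 7A and 763 and 1094 of 2149 in wild type.

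Both lists were led by MYC in fold enrichment. The MYC peaks ranked 1 and 7 of 88 by fold enrichment in the 7A list, with values of 39.8 and 23.3, and 1 and 2 in the wild-type list. Their summits lay 2 and 0 bp from the wild-type summits. The cells carry a MYC transgene, and whether these peaks come from it was not tested. The 7A peak of MTRNR2L1, a nuclear copy of the mitochondrial large ribosomal RNA gene, had the highest −log10 q of its list (778). The wild-type peak there ranked 6 by −log10 q and 1797 by fold enrichment, with the summits 58 bp apart. On chromosome 1 another pair at 630718 to 630818 lay in the span of LOC102724250. Its −log10 q ranked 14 in wild type and 47 in 7A.

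PGK1 stood higher in the wild-type list than in the 7A list. Its peak at the gene start ranked 3 of 2149 by fold enrichment in wild type and 59 of 88 in 7A. By −log10 q the ranks were 2 and 17. The summits were 174 bp apart, with the 7A summit 20 bp inside the annotated gene. The wild-type summit lay before the gene start, in no annotated gene. Its fold enrichment was 331, while that of wild-type peaks without a 7A peak reached at most 44.8. The origin of this RNA was not tested. Without the peaks at MYC and PGK1, 27 of 85 7A peaks (31.8%) lay on a wild-type peak.

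Small structured RNA and histone messages gave 4 pairs. SCARNA28, annotated as a small Cajal body RNA of 194 bp, ranked 7 by −log10 q in wild type and 26 in 7A, with summits 1 bp apart. The linker histone gene H1-4 ranked 8 and 28, the core histone gene H4C5 ranked 27 and 54, and H2AC6 ranked 130 and 84. In these 3 histone genes the wild-type peak spanned 786, 436 and 481 bp, and the 7A peak covered 19.6%, 45.6% and 43.2% of it near the start of the gene. Similar histone genes can share reads, so the copy of origin is uncertain.

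A further set of pairs lay toward the ends of protein-coding genes. The actin gene ACTB, the cofilin gene CFL1, the profilin gene PFN1, the calmodulin gene CALM2, the metallothionein gene MT2A and SNRPB, which encodes a core spliceosome protein, had 7A summits 640, 404, 135, 490, 136 and 93 bp from the annotated end of the gene. By fold enrichment they stood in the lower part of the 7A list, from rank 64 for SNRPB to rank 87 for MT2A, apart from CALM2 at rank 42. The elongation factor gene EEF2 and the pyruvate kinase gene PKM had pairs in their interior, at ranks 78 and 74. EEF2 held 9 wild-type peaks and PKM 12, of which 1 each was met.

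Besides PGK1, the histone genes and SCARNA28, 3 paired peaks lay within 500 bp of a start. PHB2, which encodes a prohibitin, stood at rank 11 of 2149 in wild type by fold enrichment, and its 7A peak ranked 52 of 88, with the summit 305 bp into the gene. COXFA4 had its 7A summit 105 bp into the gene and ranked 54. The peak at the start of PRDX5 has its summit in TRMT112 too, a shorter gene annotated on the opposite strand, and ranked 75.

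In TOM1, PIAS4 and RILPL1 the paired peaks lay between 2.27% and 29.5% of the way down the 7A list by fold enrichment, and between 46.1% and 80.0% of the way down the wild-type list. TOM1, a gene of endosomal sorting, held 7A peaks of 2872 and 2637 bp with fold enrichments of 30.02 and 13.6, ranks 2 and 26. They enclosed wild-type peaks of 243 and 166 bp with ranks 990 and 1720. The 7A peaks covered 95.7% of 5759 bp of the gene. The SUMO ligase gene PIAS4 ranked 17 in 7A and 1348 in wild type, and RILPL1 ranked 15 and 1391. The doublecortin-like kinase gene DCLK2 held 2 pairs, at ranks 13 and 65 in 7A and 84 and 332 in wild type. In TOM1, PIAS4 and 1 of the DCLK2 pairs the 7A peak held the whole wild-type peak.

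Of the 30 pairs, 3 had the 7A summit in no annotated gene. On chromosome 1, both lists had a peak at exactly 6261628 to 6261729, rank 10 of 88 by fold enrichment in 7A and 95 of 2149 in wild type. On chromosome 12, both had a peak at 130315532 to 130315631, rank 3 in 7A and 15 in wild type. In ZNF316, a zinc finger gene, the limits of both peaks were again identical. At the chromosome 1, chromosome 12 and ZNF316 places the wild-type and 7A peaks were 100 to 102 bp wide and had the same limits to the base. Their summits were 0, 1 and 76 bp apart. The third pair outside annotated genes, on chromosome 21, did not share this. Its peaks were 761 bp wide in 7A and 918 bp in wild type, with starts 25 bp apart.

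The other 58 7A peaks (65.9%) lay far from wild-type peaks. Their median distance to the nearest wild-type peak on the same strand was 1281088 bp (quartiles 366748 and 2633085), and only 9 had such a peak within 100000 bp. Of these 58, 7 (12.1%) lay in a gene that held a wild-type peak elsewhere. In all, 28 of 61 7A host genes (45.9%, interval 34.0 to 58.3) also hosted a wild-type peak, which became 19.2% and 14.8% under the same cuts. Hosts are the shortest annotated genes that hold a summit, and 2.39% of all 59712 annotated genes hosted a wild-type peak and 0.102% a 7A peak.

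**Figure D2:**
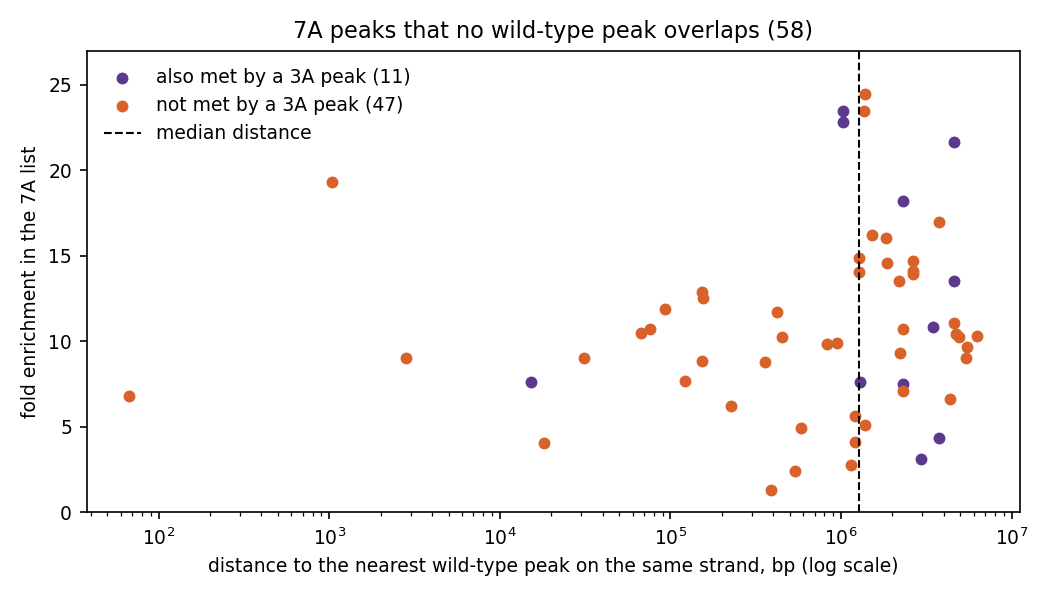
Fold enrichment in the 7A list against the distance in bp (log scale) to the nearest wild-type peak on the same strand for the 58 7A peaks that no wild-type peak overlaps, coloured by whether a 3A peak overlaps them. The dashed line is the median distance, 1281088 bp, and 11 of the 58 are met by a 3A peak.

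The 4 highest of these peaks by fold enrichment were each over 1000 bp wide. LOC124900480, a long non-coding RNA gene on chromosome 22, held peaks of 1075 and 2238 bp, from 48581150 to 48582224 and from 48585522 to 48587759, at ranks 4 and 5 of the 7A list. Both summits also lie in TAFA5, a protein-coding gene of 262380 bp on the same strand. On chromosome 2, peaks of 1211 and 1527 bp in no annotated gene ranked 6 and 8, and together they covered 85.0% of a stretch of 3221 bp. Each peak of that chromosome 2 pair was also met by a 3A peak.

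Hosts of these peaks were often long genes. AUTS2, linked to neurodevelopment, spans 1195032 bp and held 4 7A peaks. Of these, 3 lay within 2478 bp of each other between 75.1% and 75.2% of the gene's length, with fold enrichments of 21.7, 13.5 and 11.1, and 2 of the 3 were met by a 3A peak. The remaining AUTS2 peak lay on the opposite strand of the gene. TBC1D22A held 2 peaks, of 1145 and 372 bp, both met by a 3A peak. Among the 39 hosts of 7A peaks away from wild type, counted over all gene types, 14 (35.9%, interval 22.7 to 51.6) exceeded 100 kb. They include the long non-coding RNA gene EPIC1, of 223927 bp. Among all 1426 wild-type hosts it was 7.29% (interval 6.06 to 8.76), and among the 24 hosts of paired 7A peaks it was 4.17%.

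Several hosts encode secreted, matrix or adhesion proteins, named here after the hosts were seen and not from a list. GAS6, a secreted ligand of receptor tyrosine kinases, held peaks of 2441 and 682 bp with fold enrichments of 14.9 and 14.1. KIRREL3, an adhesion molecule of the immunoglobulin family, had a peak of 16.97, and PXDN, which encodes a peroxidase of basement membranes, had 16.1. PODNL1 held 3 peaks between 8.83 and 12.9. SPARC, which encodes osteonectin of bone matrix, held 2 peaks of 5.63 and 4.10. The growth factor genes IGF2 and NTF3, the adhesion gene NTM and the chemokine gene CXCL14 held 1 each. These 9 genes hosted no wild-type peak, and of all 39 hosts of unpaired 7A peaks 6 (15.4%) hosted one. In a list of 42 matrix and adhesion genes, 3 hosted a 7A peak (SPARC, PXDN and KIRREL3) and 1 a wild-type peak (LAMC1), beside 0.244% and 6.02% of all protein-coding genes. The list was chosen with earlier results of these data known, so its count is not independent evidence. SPOCK3, a proteoglycan gene with a wild-type peak of fold enrichment 38.3, is not among its wild-type hosts.

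Other hosts had a single peak away from wild type. By fold enrichment they included the dipeptidase gene PEPD (13.9), the replicative helicase gene MCM5 (11.9), the myosin gene MYO18B (11.7), the tubulin chaperone gene TBCD (10.7), the clathrin heavy chain gene CLTC (9.90) and the glycosyltransferase gene ALG12 (8.78). TBCD also hosted a wild-type peak, and the nearest one was 75619 bp away. Of the unpaired peaks, 3 lay within 500 bp of a gene end, those of the annexin gene ANXA2 (321 bp), of CXCL14 (339 bp) and of ANXA2P2 (359 bp). ANXA2P2 is a pseudogene of ANXA2, and reads of parent and copy may not be separable. The 7A peak of lowest fold enrichment (1.34) lay on the plus strand in TALAM1, an antisense RNA, and the nuclear non-coding RNA gene MALAT1, annotated on the plus strand, holds the same summit.

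Peaks of the 3A mutant, the only other mutant list, met 11 of the 58 7A peaks away from wild type (18.97%, interval 10.9 to 30.9) and 21 of the 30 paired ones (70.0%, interval 52.1 to 83.3). The 11 include peaks in AUTS2, TBC1D22A, IGF2, ANXA2, the cell death gene HRK, and, outside annotated genes, on chromosomes 2 and 9.

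Host genes were grouped by type. Protein-coding genes held 25 of 30 paired peaks (83.3%, interval 66.4 to 92.7) and 38 of 58 unpaired ones (65.5%, interval 52.7 to 76.4). Long non-coding RNA genes held 0 of 30, which allows a share of up to 10.0%, and 10 of 58 (17.2%, interval 9.64 to 28.9). Of these 10 summits, 3 also lie in a protein-coding gene on the same strand, those of LOC124900480 in TAFA5 and that of LOC124902362 in DIP2C. With protein-coding hosts taken first, 67 of the 88 7A summits (76.1%) lay in such genes instead of 63 (71.6%). No annotated gene was found at 3 of the paired summits and at 8 of the unpaired ones. In the wild-type list 87.0% of summits lay in protein-coding genes and 3.82% in long non-coding RNA genes. No difference between paired and unpaired peaks was tested.

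Along the gene, 7A summits were sparse at starts, and those that lay there were all in pairs. Of 77 7A summits in genes 8 (10.4%, interval 5.36 to 19.2) lay within 500 bp of the start, against 0 of 35 in the upper part of the list by fold enrichment and 4.62% of those in hosts of at least 5 kb. Within 500 bp of the host's start lay 8 of 27 paired 7A summits in genes (29.6%, interval 15.9 to 48.5) and 0 of 50 unpaired ones, which allows a share of up to 6%. Of wild-type summits in genes, 959 of 2121 lay there (45.2%, interval 43.1 to 47.3). Of the 86 in genes among the 88 most significant wild-type peaks, taken by −log10 q, it was 59.3% (interval 48.7 to 69.1). At the other end of the gene, 9 of the 27 paired summits (33.3%) lay within 500 bp of the annotated end, against 3 of the 50 unpaired ones (6%) and 13.5% of wild-type summits. Of those 9, H2AC6, H4C5 and SCARNA28 lie in genes of 519, 412 and 194 bp and are also among the 8 at starts, and CALM2 and SNRPB alone lie in hosts of at least 5 kb.

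Where the host was a protein-coding gene of 5 kb or more, the last 20% of the gene held 7 of 17 paired 7A summits (41.2%), 15 of 38 unpaired ones (39.5%, interval 25.6 to 55.3) and 20.7% of 1519 wild-type summits. The first 20% held 3 of the paired summits, 4 of the unpaired ones and 53.3% of the wild-type ones. The 7A peaks in the last 20% include those of PIAS4, PODNL1, SPARC and IGF2 away from wild type and those of CALM2, SNRPB and TOM1 in pairs.

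**Figure D3:**
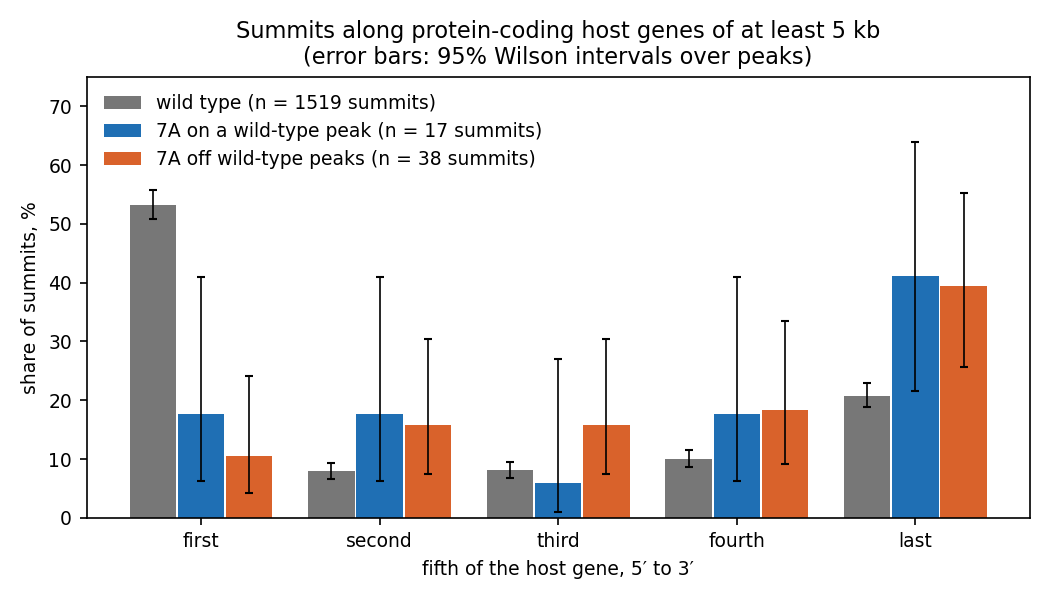
Share of summits in each 20% of the length of protein-coding host genes of at least 5 kb, from the 5′ to the 3′ end, for wild-type peaks (grey), paired 7A peaks (blue) and 7A peaks away from wild type (orange), with 95% Wilson intervals over peaks. Wild-type summits are most frequent in the first bin (53.3%), and both classes of 7A summits in the last (41.2% and 39.5%).

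Width separated the classes less simply. The paired 7A peaks had a median of 130.5 bp (quartiles 110 and 503.5), the unpaired ones 233 bp (quartiles 148 and 428.75) and all wild-type peaks 165 bp (quartiles 126 and 223). Peaks over 400 bp were 9 of the 30 paired and 17 of the 58 unpaired 7A peaks. They also made up 25.0% (interval 17.1 to 35.0) of the 88 most significant wild-type peaks, whose median width, 205.5 bp, was near the 202 bp of the whole 7A list. Above 1000 bp the lists differed more, with 10 of 88 7A peaks (11.4%, interval 6.29 to 19.7), 1 of those 88 wild-type peaks (1.14%, interval 0.201 to 6.16) and 7 of all 2149 (0.326%). The 10 include peaks in TOM1, GAS6, LOC124900480, PIAS4, TBC1D22A and the chromosome 2 stretch. Of the 88 7A peaks, 32 lay in 15 groups of neighbours at most 10 kb apart, so the peaks of a group share a locus.

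**Figure D4:**
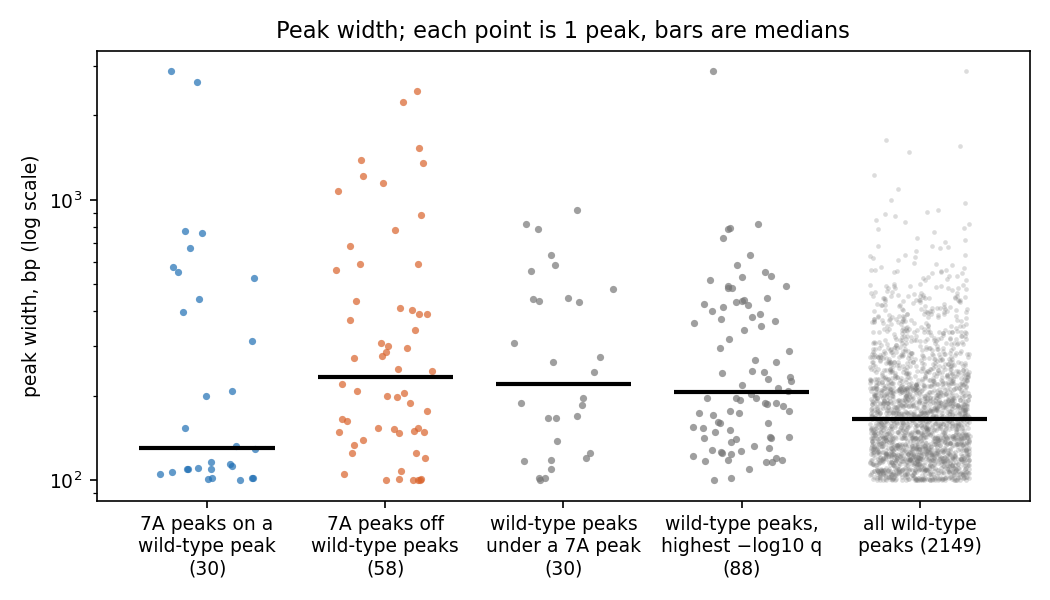
Peak width in bp (log scale), 1 point per peak and bars at the medians, for paired and unpaired 7A peaks, for the wild-type peaks of the pairs, for the 88 most significant wild-type peaks and for all wild-type peaks. The medians are 130.5, 233, 219.5, 205.5 and 165 bp, and 10 of 88 7A peaks and 7 of 2149 wild-type peaks exceed 1000 bp.

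The wild-type list held 2119 peaks that no 7A peak met. Those of high fold enrichment included peaks in the ribosomal protein pseudogene RPS21P4 (44.8), the lactate dehydrogenase gene LDHB (40.8), SPOCK3, a proteoglycan gene (38.3), NME1 (37.1), TFRC, which encodes the transferrin receptor (32.0), and the pyrophosphatase gene PPA1 (31.6). By −log10 q the first were RPPH1 and RMRP, the RNA components of ribonucleases P and MRP, at ranks 4 and 5. By fold enrichment (3.61 and 1.94) these 2 stood near the bottom of the list, at ranks 2017 and 2145 of 2149. Next by −log10 q came ENO1, an enolase gene, and the ribosomal protein gene RPL8, at 9 and 10. The genes with the most unmet wild-type peaks were FASN, the fatty acid synthase gene, and PKM with 11 each and ENO1 with 9.

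Ribosomal protein genes held many wild-type peaks. Wild-type summits lay in 36 of 47 large-subunit genes, led by RPL5 (27.4), RPL19 (24.8) and RPL8 (20.6), and in 22 of 32 small-subunit genes, led by RPS24 (26.5) and RPS21 (23.6), beside 6.02% of all protein-coding genes. No ribosomal protein gene hosted a 7A peak, which 0.244% of protein-coding genes did, so for lists of this length 0 is near the background. Of the 88 7A peaks 0 lay in these genes, which allows a share of up to 3.41%, while 5.30% of all wild-type peaks and 15.9% of the 88 with the highest −log10 q did.

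Wild-type peaks also lay in many genes of protein folding, ribosome assembly and splicing. Of 25 chaperone genes 20 held a wild-type peak, among them HSPD1 (27.1), CANX (23.2) and CCT4 (20.1). Of 30 nucleolar and ribosome biogenesis genes 23 did, among them BOP1 (27.9), NOP16 (24.3) and NOP14 (22.2). Of 36 splicing factor genes of the SR and hnRNP families 21 did, led by HNRNPM (15.6), of 20 host genes of small nucleolar RNAs 11 did, led by EPB41L4A-AS1 (23.5), and of 24 genes of lipid synthesis and uptake 10 did, led by SCD (26.9). In these 5 lists 0 genes held a 7A peak, which is again near the 0.244% of protein-coding genes and 0.102% of all genes that did. For every one of these lists the share of genes with a wild-type peak was above the 2.39% of all annotated genes and the 6.02% of protein-coding genes, and no test of a list was made.

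In other lists a few genes held both. Of 17 glycolysis genes 10 held a wild-type peak and 2, PGK1 and PKM, a 7A peak. Of 37 translation factor genes the numbers were 19 and 1 (EEF2), of 65 replication-dependent histone genes 30 and 3 (H1-4, H2AC6 and H4C5), and of 22 cytoskeletal genes 13 and 3 (ACTB, CFL1 and PFN1). Among 20 small structured RNA genes they were 3 and 1 (SCARNA28), and among 20 nuclear copies of mitochondrial genes 4 and 1 (MTRNR2L1). The 11 7A peaks in these 6 lists were all in pairs, beside 30 of all 88 7A peaks (34.1%). The lists were chosen with earlier results of these data known, and 15% to 59.1% of their genes held a wild-type peak. The counts of genes with a 7A peak stand against a background of 0.102% of annotated genes and 0.244% of protein-coding genes.

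**Figure D5:**
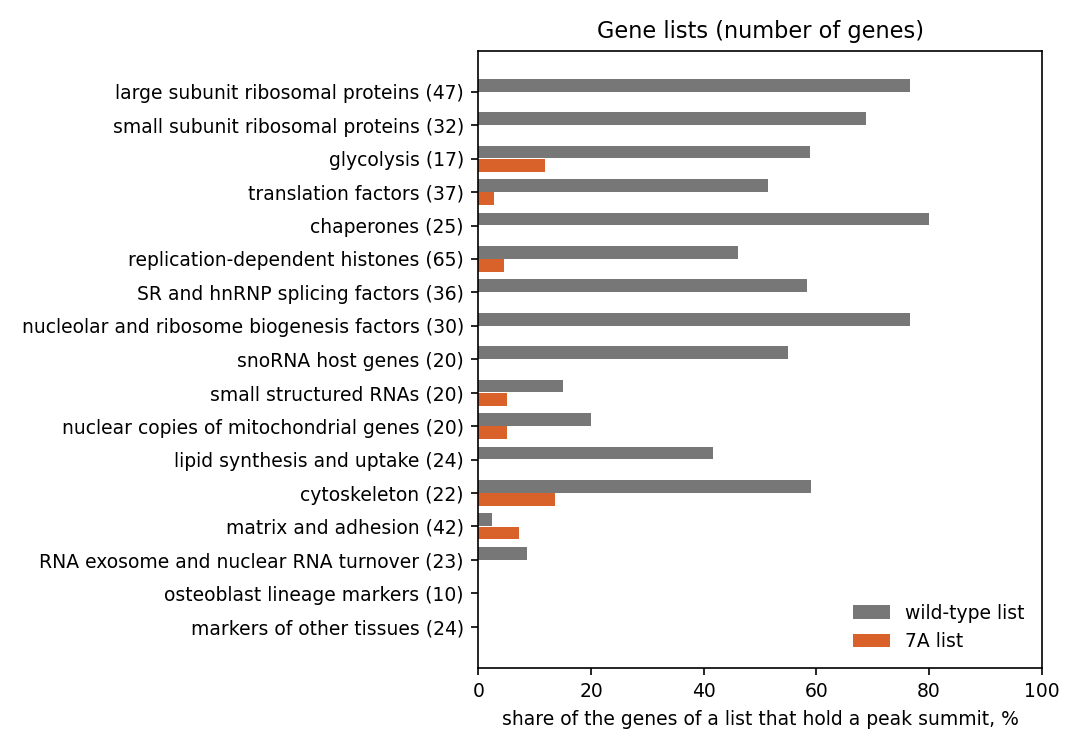
Share of the genes of each list that hold a wild-type (grey) or a 7A (orange) peak summit, with the number of genes in the list in parentheses. The ribosomal protein, chaperone, nucleolar, splicing factor, small nucleolar RNA host, lipid and exosome lists have wild-type peaks only. Their 0 7A hosts are near the background of 0.244% of protein-coding genes and 0.102% of all genes. Matrix and adhesion genes are the list with more 7A than wild-type hosts (3 and 1 of 42). That list was chosen with earlier results of these data known.

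The remaining lists were near the background. Of 23 genes for exosome subunits and nuclear decay factors, EXOSC7 and EXOSC3 held a wild-type peak (8.70%, beside 6.02% of protein-coding genes) and 0 a 7A peak. Of 10 osteoblast lineage markers and 24 markers of other tissues, 0 held a peak in either list. SPARC, which encodes osteonectin of bone matrix and held 2 7A peaks, was counted with the matrix and adhesion genes instead. Peaks do not measure expression, so these counts do not test the identity of the cells.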

How the data were processed

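The eCLIP peak lists of doxycycline-treated cells were used as deposited, in narrowPeak layout. Each deposited peak has a fold enrichment, a ratio over a control that is not given in the sources used here, and a −log10 q, with deposited minima of 2.04 (wild type) and 2.90 (7A). The submitters' processing notes name BWA, cutadapt, MACS2 and the build hg38. Their versions, settings and any pooling of replicates are not given in sources used here, and these steps and the unknown depth can move the number and width of peaks. Libraries made without doxycycline were not analysed here. Peaks in a few genes are counted in the totals and not reported here by name.

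Positions were made 1-based. A host is the shortest of 59712 RefSeq genes (GRCh38.p14) that holds the summit. Distance to a gene start used the annotated strand where the promoter table gives one, otherwise that of the peak; exons were not used here. All 494 genes of the 17 lists matched a RefSeq symbol. Members, lists and alternatives were chosen with earlier results of these data known, as was the rule for named genes: every 7A host, the hosts of the 15 unmet wild-type peaks highest by either value, the 10 with most wild-type peaks, and up to 6 genes per list by wild-type fold enrichment. Starts on chromosome 8 were left out of those printed. The gene starts printed, the word AAGATGG, chromosome ends and groups of neighbours were chosen after seeing the data. With 1 list per allele no tests were run. Overlap code was checked on simulated data against bedtools (1800 calls, 0 differences). Python 3.11.15, pandas 2.3.3, NumPy 2.4.6, SciPy 1.17.1 and matplotlib 3.10.9 were used.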

Additional observations from a re-analysis of the deposited data

How the results depend on the processing

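Of 101 alternative values of 11 results, 78 stayed within the 95% interval of the value given above, or for the count within 1.5 times, and 23 moved. Keeping the upper part of each list, from its median fold enrichment, the overlap was 15.9% of 7A and 0.651% of wild-type peaks, 19.2% of 7A hosts were wild-type hosts, the median 7A width was 354 bp, and 0% of 7A and 49.6% of wild-type summits lay at gene starts. With the 88 most significant wild-type peaks, the overlap was 11.4% of either list, shared hosts 14.8%, wild-type width 205.5 bp, wild-type starts 59.3% and wild-type protein-coding share 83.0%. Merging neighbours within 1 kb gave a wild-type width of 172 bp and 48.4% at starts, and within 10 kb 190 bp, 55.8% and a protein-coding share of 84.7%. Wild-type starts were 35.6% within 250 bp and 52.8% within 1000 bp, and in hosts of at least 5 kb they were 40.5% for wild type and 4.62% for 7A. The wild-type protein-coding share was 92.0% with coding hosts first and 88.7% without hosts on the opposite strand. The cause of these moves was not tested. Merging within 10 kb, leaving out opposite-strand hosts and using the strand of the peak were chosen after seeing the data. No paired analysis was possible because the single list of an allele holds nothing for separate replicates, so no replicate could be left out. The 88 peaks of the 7A list limit all comparisons, and unknown depth leaves the length of the lists uninterpreted.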

Other observations

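The 7A peaks away from wild type were unevenly spread over the chromosomes. Chromosome 22 held 11 of the 58 (18.97%, 95% Wilson interval 10.9 to 30.9), in LOC124900480, LINC00898, TBC1D22A, EPIC1, ALG12, MCM5, MYO18B and PSLNR, and 94 of the 2149 wild-type peaks (4.37%, interval 3.59 to 5.32). Within 5 Mb of the first or last annotated gene of a chromosome lay 22 of the 58 (37.9%, interval 26.6 to 50.8), 7 of the 30 paired 7A peaks (23.3%) and 17.4% of wild-type peaks (interval 15.8 to 19.02). Among these 22 are the peaks of PXDN, GAS6, PIAS4, TBCD, IGF2 and ALG12. Both measures were chosen after the positions were seen.

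Promoter windows met by a wild-type peak held the E-box CACGTG in 55 of 395 (13.9%), against 7.26% of all 35116 windows. The GC box GGGCGG was in 73.7% against 45%, the looser E-box CANNTG, which includes CACGTG, in 52.9% against 68.7%, CCAAT in 37% against 34.6% and TATAAA in 7.85% against 11.5%, all searched on both strands. The word AAGATGG, which is inside the SLIRP and NDUFB8 sequences shown above and was searched after they were seen, was in 10.1% against 5.84%. Of the 3 windows met by a 7A peak, 0 held CACGTG and 2 held GGGCGG. A match is a string of letters and not a binding site, and expressed genes were not separated from silent ones.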
